A study of Mus musculus with 14 samples.

Results

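The genes described here are 33 genes of spinal neurons, their axons and their transmitters, taken by name from the table of normalized gene counts. The list covers 8 roles. All 33 are among the 24116 genes of the table and 32 of them had enough reads to be tested, against 15637 genes tested in all. The exception is Slc18a3, the vesicular acetylcholine transporter, which was listed at 0 in all 14 libraries. Slc18a3 lies inside the span of Chat, the acetylcholine-synthesizing enzyme, on chromosome 14, and a 0 allows up to 3 reads in each library, for counting error only. The microglial markers P2ry12 and Gpr34 were also at 0 in all 14 libraries, while the microglial marker Cx3cr1 reached 4717. A 0 throughout is therefore not taken as a measured level of Slc18a3, and its cause was not tested.

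Neurons of the ventral spinal cord include motor neurons, which send cholinergic axons out to muscle, and local interneurons that release glutamate, GABA or glycine. The axons of these and of other neurons run through the white matter, where oligodendrocytes wrap them in myelin. A neuron keeps most of its messenger RNA in the cell body and carries proteins and some transcripts along the axon on motor proteins of the kinesin family. Axons are held open by neurofilaments and microtubules, and their terminals release transmitter through a conserved vesicle fusion machinery. Demyelination exposes axons, and neurons whose axons are damaged are known to switch on growth and stress genes.

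RNA was sequenced from ventral spinal cord of mice that carried Cx3cr1-CreER, a tamoxifen-dependent recombinase driven by the promoter of Cx3cr1, a receptor of microglia and other myeloid cells. Ablated mice also carried Rosa26-iDTR+/-, an allele for a diphtheria toxin receptor, and non-ablated mice were Rosa26-iDTR-/-. Every group received tamoxifen for 3 days and, after 4 to 6 weeks, an injection of lysophosphatidylcholine (LPC), which damages myelin. Diphtheria toxin was then given each day until the tissue was taken 5 days after LPC. Tissue from the lesion and uninjured tissue distal to it was collected by laser capture, and for each library 3 to 5 mice, males and females together, were pooled. The distal tissue therefore came from mice that also had a lesion. Non-ablated mice gave the distal libraries 1, 3 and 5 and the lesion libraries 2, 4 and 6. Ablated mice gave the distal libraries 7, 9, 11 and 13 and the lesion libraries 8, 10, 12 and 14. The age labels rise by 1 month per library from 2 to 15 months in that number order and do not overlap between the genotypes, so age as labelled and ablation cannot be told apart. Whether these labels are true ages is uncertain, since no 2 libraries share one although lesion and distal pieces may be of the same mice. Per the study design there were 3 pools without ablation and 4 with it, so both tissues may come from the same mice, but the labels do not tie one piece to another and the p-values ignore such a link.

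Depth was 23601763 to 30844575 reads per library, and 15949 to 17945 genes were detected. The mean log2 level of 9 microglial marker genes lay at 7.61 to 8.08 in ablated lesions and at 9.82 to 10.00 in non-ablated lesions. P2ry12 and Gpr34, at 0 in all 14 libraries, are among the 9 and lower both ranges. Libraries 9 and 8 stood apart over all genes: distal library 9 was the highest of the 7 distal libraries in 25.7% of genes and the lowest in 25.8%, and lesion library 8 was the highest of the 7 lesion libraries in 25.6% and the lowest in 26.3%. Values below are normalized counts, which are gene counts divided by a size factor for each library. Fold changes are on the log2(normalized count + 1) scale, with standard errors, and understate the change of low genes. Calls are at an adjusted p (Benjamini-Hochberg, over the 15637 genes of a comparison) under 0.05 in limma, which fits 1 model to all genes. Adjusted p-values are from that fit unless another tool is named.

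The level of these genes varied more between libraries of 1 group than that of most genes. Their within-group SD on the log2 scale had a median of 1.74 and ran from 0.36 for Uchl1 to 3.55 for Calca, while the median over all genes tested was 0.58. Library 11, from ablated distal tissue, was the highest of the 7 distal libraries for 20 of 32 genes (62.5%, against 11.3% of all genes), and library 5 the lowest for 12. Among lesions, library 10 from ablated mice was the highest for 21 of 32 genes (65.6%, against 13.7% of all genes), and library 6 from non-ablated mice was the lowest for 16 (50%). The mean log2 level over the 33 genes was 8.74, 7.36 and 6.37 in the non-ablated distal libraries and 6.34, 6.52, 9.28 and 7.79 in the ablated ones, in number order. It was 6.69, 6.46 and 5.18 in the non-ablated lesions and 5.62, 8.67, 7.60 and 6.32 in the ablated lesions. All 4 groups overlapped on this measure. A set of 12 other neuronal genes, such as synapsins and vesicle proteins, none of them among the 33, ordered the libraries in a like way, with library 11 highest in distal tissue and library 10 highest in lesions. How much nerve cell body each dissected piece held is not given in the sources used here, and its part in these differences was not tested.

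**Figure D1:**
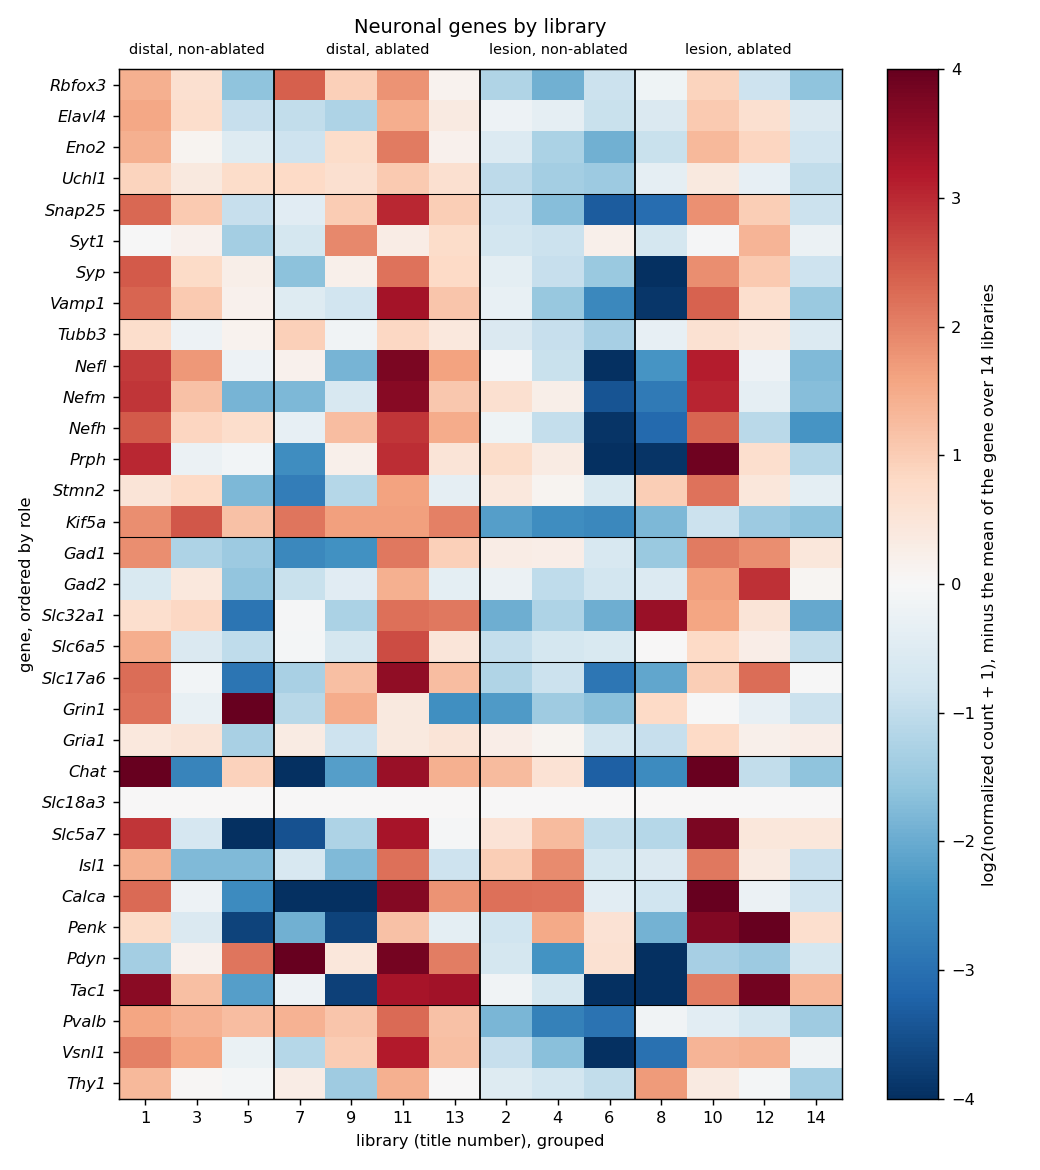
Each row is one of the 33 neuronal genes and each column a library, grouped by tissue and genotype. Colour gives log2(normalized count + 1) minus the gene's mean over the 14 libraries, cut off at 4 in either direction; red columns such as 11 and 10 and the pale row of Slc18a3, at 0 throughout, stand out.

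In non-ablated mice 5 of the 32 genes were lower in lesion than in distal tissue and none was higher, where 13.3% of all genes tested were called lower and 14.7% higher. These 5 were Kif5a, Pvalb, Uchl1, Tubb3 and Grin1. The count of 5 was near the share of all genes called lower and is no result about the list. A further 21 had a negative difference that did not pass. The median log2 difference of the 32 genes was -1.42, and that of all genes tested was 0.07. Distal and lesion libraries did not overlap, with the lesions lower, for 11 of the 32 genes, and the same held for 23.1% of all genes. In pooled bulk tissue, fewer cells of a type and less RNA per cell cannot be told apart. Mature oligodendrocyte markers moved in the same direction: all 10 were called lower, with a mean log2 level of 15.55 to 15.64 in distal and 12.47 to 13.09 in lesion libraries. All 8 astrocyte markers were also called lower, while 7 of 9 macrophage markers were called higher. The part of these shifts in the neuronal values was not tested.

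Kif5a, a kinesin heavy chain that carries cargo along axons (chromosome 10, 127225695 to 127266348), had the smallest p of the 32 genes. Its normalized counts were 32191, 48998 and 19880.4 in the non-ablated distal libraries and 1923, 1567 and 1478 in the lesions. The lowest distal library was far above the highest lesion library. The difference was -4.26 ± 0.31, a 19.2-fold lower level on that scale (adjusted p = 1.07e-06). Its span overlaps Dctn2, a dynactin subunit, which was at 4721, 3809 and 17936 in the same distal libraries, so that library 5 held the least Kif5a and the most Dctn2 of the 3. Counting by strand is not stated, so reads of overlapping genes may have been shared.

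Pvalb encodes parvalbumin, a calcium-buffering protein of fast-firing neurons (chromosome 15, 78191112 to 78206400). It was at 1259.9, 1101 and 979.6 in non-ablated distal tissue and at 116, 63.9 and 53.3 in lesions, again without overlap. It fell by 3.89 ± 0.40 on the log2 scale (adjusted p = 1.01e-05). Vsnl1, another neuronal calcium sensor, was at 634, 472 and 129.8 in distal and 82.4, 48.1 and 5.33 in lesion libraries without overlap, but with a larger spread, and its difference of -3.52 ± 1.27 did not pass (adjusted p = 0.0523), although it passed in 10 of 25 alternative settings, with DESeq2 among them (adjusted p = 0.00945). Thy1, a surface glycoprotein of projection neurons that is also carried by T cells, was at 4874, 2056 and 1888 in distal and 1387, 1184 and 1006 in lesion libraries (adjusted p = 0.246). T cell markers were low throughout, with a sum over 7 genes of 13.0 to 501 normalized counts in the non-ablated libraries.

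Of the 4 genes found in nearly all neurons, Uchl1 was called. This deubiquitinating enzyme, abundant in cell bodies and axons (chromosome 5, 66676121 to 66687234), was at 11910.2, 8319.9 and 10624 in non-ablated distal tissue and 3105, 2518 and 2334 in lesions. No lesion library reached the lowest distal one. It fell by 1.95 ± 0.28 on the log2 scale (adjusted p = 0.000152), a 3.86-fold lower level. Rbfox3, the nuclear splicing factor known as NeuN, was at 185, 107 and 21.6 in distal and 29.1, 17.2 and 37.3 in lesion libraries, with library 5 inside the lesion range, and its difference was -1.48 ± 0.82 (adjusted p = 0.21). Eno2, the neuronal form of enolase, was at 1201, 484 and 314 in distal and 303, 186 and 117 in lesion libraries without overlap, yet did not pass (adjusted p = 0.135). Elavl4, an RNA-binding protein of the Hu family, overlapped between the groups (adjusted p = 0.404).

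Tubb3, the neuronal beta-tubulin (chromosome 8, 123411553 to 123422015), was at 3807, 2009.7 and 2574 in non-ablated distal tissue and 1544, 1220.0 and 921 in lesions. The groups did not overlap, and the level fell by 1.17 ± 0.36 (adjusted p = 0.0274). Without distal library 1 the difference was -0.92 and no longer passed (adjusted p = 0.11), and the call was also lost without library 4, 5 or 6. The neurofilament subunits did not pass in spite of large differences. Nefl, the light subunit, was at 3761, 1799 and 477 in distal tissue and 528, 290.3 and 8.54 in lesions, and its difference of -3.70 ± 1.68 had an adjusted p of 0.12. Library 6 lay far below the other lesions for this subunit. Nefh, the heavy subunit, was at 3362, 1112 and 1013 in distal and 549, 318 and 39.5 in lesion libraries without overlap, with a difference of -3.02 ± 1.24 (adjusted p = 0.0874). Nefm and Prph, which encode the middle subunit and the peripheral filament protein peripherin, overlapped between the groups (adjusted p = 0.533 and 0.459).

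Stmn2 encodes a tubulin-binding protein that is known to rise in growing axons, and its level was 3059, 3681 and 609 in non-ablated distal tissue and 2869, 2298 and 1405 in lesions. The groups overlapped, and the difference was 0.14 ± 0.93 (adjusted p = 0.93). Of the 7 axonal genes it was the only one with a positive difference in non-ablated mice.

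None of the 4 vesicle release genes was called in non-ablated mice, though all 4 differences were negative. Snap25, a membrane protein of the fusion complex, was at 8187, 3471 and 883 in distal tissue and 937, 512 and 165 in lesions. Distal library 5 lay below lesion library 2, and the difference of -2.77 ± 1.17 missed the threshold (adjusted p = 0.0954). Vamp1, its partner on the vesicle, was at 2320.1, 954 and 517 in distal and 375, 162 and 75.7 in lesion libraries (adjusted p = 0.167), and the vesicle protein gene Syp at 644, 198 and 137 in distal and 88.1, 60.4 and 40.5 in lesion libraries (adjusted p = 0.254). Both separated the groups without passing. Syt1, the calcium sensor of release, showed next to no difference between the means, -0.06 ± 0.67 (adjusted p = 0.96).

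The transmitter genes were low and scattered. Grin1, the obligatory subunit of the NMDA receptor (chromosome 2, 25291177 to 25319187), was called lower in non-ablated lesions, at 89.9, 15.4 and 967 in distal tissue and 3.23, 6.47 and 5.33 in lesions. Distal library 5 alone held the value of 967. The difference was -4.27 ± 1.23 (adjusted p = 0.0183), and without library 5 it was -2.72 and did not pass (adjusted p = 0.0787). The call was also lost without lesion library 2 (adjusted p = 0.0606). Lrrc26 and Grin1os, which overlap Grin1, were at 0 in library 5. Grin1os was at 0 in all 14 libraries and Lrrc26 at 6.26 or less, so a 0 in library 5 sets neither gene apart there. The source of the value of 967 was not tested.

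For the other transmitter genes, each group overlapped the other in non-ablated mice. Gad1, a GABA-synthesizing enzyme, was at 148, 16.5 and 14.0 in distal tissue and 50.1, 48.9 and 25.6 in lesions, a difference of 0.26 ± 1.30 (adjusted p = 0.906). Distal library 1 was the highest of the 6 and the other distal libraries were the lowest. Slc17a6, the vesicular glutamate transporter of spinal excitatory neurons, was at 217, 41.9 and 5.09 in distal and 19.4, 24.4 and 5.33 in lesion libraries (difference -1.37 ± 1.38, adjusted p = 0.507). Gad2, the vesicular GABA and glycine transporter Slc32a1, the glycine transporter Slc6a5 and the AMPA receptor subunit Gria1 had adjusted p-values of 0.966, 0.531, 0.597 and 0.996.

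The cholinergic genes rested on single libraries. Chat was at 1210.0, 2.2 and 36.9 in the non-ablated distal libraries, so library 1 held nearly all of it, and at 46.9, 28.7 and 1.07 in lesions. The difference was -1.88 ± 2.32 (adjusted p = 0.596) and turned to 0.38 without library 1. Slc5a7, the choline transporter of cholinergic terminals, followed the same pattern in distal tissue, at 557, 47.4 and 1.27, and was at 112, 185 and 38.4 in lesions (adjusted p = 0.666). Isl1, a homeodomain factor of motor neurons, was at 7.99, 0 and 0 in distal and 5.66, 11.5 and 1.07 in lesion libraries (adjusted p = 0.421).

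Neuropeptide genes had 2 negative and 2 positive differences in non-ablated mice, and none passed. Calca, which encodes the peptide CGRP of motor and sensory neurons, was at 370.4, 67.2 and 12.7 in distal tissue and 356, 346 and 56.5 in lesions (difference 1.45 ± 2.45, adjusted p = 0.708). Penk, the enkephalin precursor, was at 21.0, 7.71 and 0 in distal and 6.47, 35.9 and 18.1 in lesion libraries (adjusted p = 0.515). Tac1, the substance P precursor, and Pdyn, the dynorphin precursor, had adjusted p-values of 0.389 and 0.555. Calca and Tac1 are also made by sensory ganglion neurons. Among 9 sensory ganglion markers measured, 2 could be tested and neither was called: Avil and Nefh, the latter one of the 33 genes. Scn10a, which defines pain-sensing ganglion neurons, lay at 0 to 4.99 normalized counts over the 14 libraries. Other markers of the list were higher in single libraries, with Avil at 115 in library 1 and 75.1 in library 13, Pou4f1 at 72.1 in library 14 and Trpv1 at 25.1 in library 2. Their part in the values of Calca and Tac1 was not tested.

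The promoters of 3 of the genes called lower in lesions are printed because those genes moved in the same direction. Each is the 250 bases before the transcription start in GRCm38.p6 from RefSeq, 5′ to 3′ along the gene. Capitals mark either arm of RE1, the element bound by the neuronal gene repressor REST, searched as CAGCACC for the left arm and GGACAGC for the right arm on both strands. Kif5a has no entry there.
Uchl1 (chr5:66675871-66676120, plus strand): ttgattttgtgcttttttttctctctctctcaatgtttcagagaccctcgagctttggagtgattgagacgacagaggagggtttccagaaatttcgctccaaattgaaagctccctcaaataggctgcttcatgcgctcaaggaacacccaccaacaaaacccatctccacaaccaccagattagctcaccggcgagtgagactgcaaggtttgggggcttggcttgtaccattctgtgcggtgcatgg
Tubb3 (chr8:123411303-123411552, plus strand): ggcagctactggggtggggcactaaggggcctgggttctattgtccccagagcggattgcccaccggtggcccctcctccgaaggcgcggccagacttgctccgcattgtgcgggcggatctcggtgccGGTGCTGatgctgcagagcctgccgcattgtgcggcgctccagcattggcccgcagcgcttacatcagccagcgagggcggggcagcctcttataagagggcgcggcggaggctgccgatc
Pvalb (chr15:78206401-78206650, minus strand): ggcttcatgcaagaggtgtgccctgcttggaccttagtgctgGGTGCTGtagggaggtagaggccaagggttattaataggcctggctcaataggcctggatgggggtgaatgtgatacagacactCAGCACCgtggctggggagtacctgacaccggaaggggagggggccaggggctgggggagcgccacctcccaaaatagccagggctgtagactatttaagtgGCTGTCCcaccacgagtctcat
The Uchl1 window held neither arm. The Tubb3 window held the left arm on the minus strand, and the first Pvalb window held the left arm on both strands and the right arm on the minus strand. A second Pvalb start, with its window at chr15:78204238-78204487, held none. The windows of Grin1 and Pdyn, also called lower in lesions, are not printed and held neither arm. Over the 24 of 33 genes with a promoter in the table, 33 windows in all, 2 genes held the left arm and 2 the right arm. The left arm was in 5.73% and the right arm in 5.28% of 32851 windows of that length. TATAAA, the letters of a TATA box, was found for Gad1, Eno2, Prph and Slc5a7, and in 12.4% of all windows. A match of letters is not a bound site.

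In ablated mice 4 of the 32 genes were lower in lesion than in distal tissue and none was higher, with 13.8% of all genes called lower and 16.1% higher. Kif5a, Pvalb and Uchl1 were called as in non-ablated mice, joined by Pdyn. The count of 4 was near the share of all genes called lower and is no result about the list. The median log2 difference of the 32 genes was -0.45, with 20 negative, against 0.05 over all genes tested. Without distal library 11 that median was 0.09. The 4 called genes were also the 4 whose groups did not overlap, a property of 13.7% of all genes. Leaving out library 9 or library 8, the pair that stood apart, gave 4 and 5 calls. In ablated mice all 10 oligodendrocyte and all 8 astrocyte markers were again called lower, and all 9 macrophage markers higher.

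Kif5a was at 39125, 27641, 27623 and 35183 in the ablated distal libraries and 2501, 4826, 3226 and 2851 in the ablated lesions. It fell by 3.30 ± 0.27 on the log2 scale (adjusted p = 8.97e-07), a 9.86-fold lower level. Every lesion library was far below every distal one.

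Pvalb was at 1103, 894, 2018 and 939 in distal tissue and 377, 312, 257 and 156 in lesions, and fell by 2.15 ± 0.35 (adjusted p = 0.00032). Uchl1 was at 11024, 9990.0, 13146 and 9998 in distal and 5037, 8395, 5103 and 3223 in lesion libraries, and fell by 1.09 ± 0.24 (adjusted p = 0.00347). Lesion library 10 held the most Uchl1 of the lesions and still lay below every distal library. Tubb3, at 4473, 2133, 4177 and 3112 in distal and 1867, 3559, 3089 and 1585 in lesion libraries, overlapped between the tissues, and its difference of -0.48 ± 0.32 did not pass (adjusted p = 0.28).

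Pdyn (chromosome 2, 129686549 to 129699938) was at 616, 51.8, 548 and 160.0 in ablated distal tissue and 0, 14.4, 13.3 and 22.7 in lesions. All lesion libraries were below all distal ones, and the highest distal value was 11.9 times the lowest. The gene fell by 4.77 ± 1.12 on the log2 scale (adjusted p = 0.00474). In non-ablated mice the same gene was at 14.0, 43.0 and 172 in distal tissue and 22.6, 6.47 and 57.6 in lesions, and the test of the difference between the genotypes did not pass (-3.62 ± 1.71, adjusted p = 0.889).

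**Figure D2:**
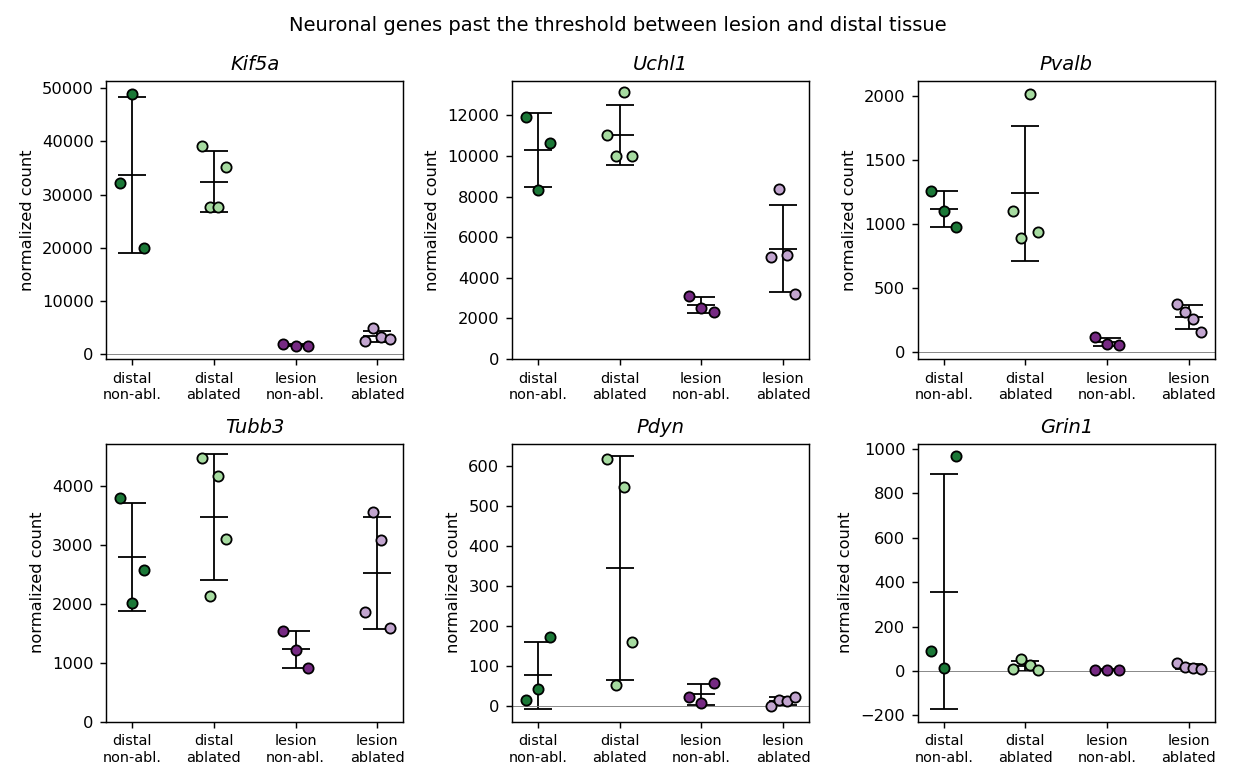
Normalized counts of the 6 neuronal genes called between lesion and distal tissue in either genotype, 1 point per library, with the mean and SD of each group (non-abl., non-ablated). Kif5a, Uchl1 and Pvalb separate both pairs of groups, while the Grin1 mean in non-ablated distal tissue rests on 1 library at 967, and SD bars run below 0 for Grin1 and Pdyn.

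Among genes that did not pass in ablated mice, Rbfox3 was at 361, 134, 238 and 75.1 in distal tissue and 60.1, 127, 38.2 and 22.0 in lesions (difference -1.74 ± 0.71, adjusted p = 0.0809). Nefh was at 495, 1465, 4475 and 1711 in distal and 70.1, 3115, 292 and 118 in lesion libraries (difference -2.37 ± 1.08, adjusted p = 0.115). In lesion library 10 it lay above all but 1 of the distal libraries, and the other lesions lay below all of them. Snap25 was at 1237, 3373, 13701 and 3283 in distal and 202, 5902, 3329 and 922 in lesion libraries, with lesion libraries 8 and 14 below all distal libraries and 10 and 12 within their range (difference -1.42 ± 1.01, adjusted p = 0.323).

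Stmn2 and Penk had positive differences in ablated mice that did not pass. Stmn2 was at 311, 964, 6472 and 1677 in distal tissue and 4203, 9682, 2889 and 1642 in lesions (difference 1.47 ± 0.81, adjusted p = 0.193). Penk was at 2.37, 0, 28.3 and 8.94 in distal and 2.5, 168, 292 and 19.6 in lesion libraries (difference 2.96 ± 1.41, adjusted p = 0.134). Lesion libraries 10 and 12 held most of the Penk. Gad1, Slc17a6, Chat and Calca overlapped between the tissues, with differences of 1.21 ± 1.12, -0.89 ± 1.20, 0.12 ± 2.01 and 2.68 ± 2.13 (adjusted p = 0.46, 0.626, 0.973 and 0.379).

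By role, the median difference between lesion and distal tissue was negative in both genotypes for pan-neuronal (-1.53 non-ablated and -0.76 ablated), vesicle release (-2.37 and -1.15), axonal (-2.02 and -1.03), glutamate (-1.37 and -0.02) and calcium-binding and surface genes (-3.52 and -1.17). It was positive in both for cholinergic genes (1.25 and 0.49) and neuropeptide genes (0.15 and 1.18), with 3 and 4 tested genes. None of these was called higher, and in non-ablated mice Chat and 2 of the 4 neuropeptide genes had negative differences. Slc5a7 had a positive log2 difference there, yet its mean count was 202 in distal and 112 in lesion tissue. For GABA and glycine genes it was -0.39 and 0.61.

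**Figure D3:**
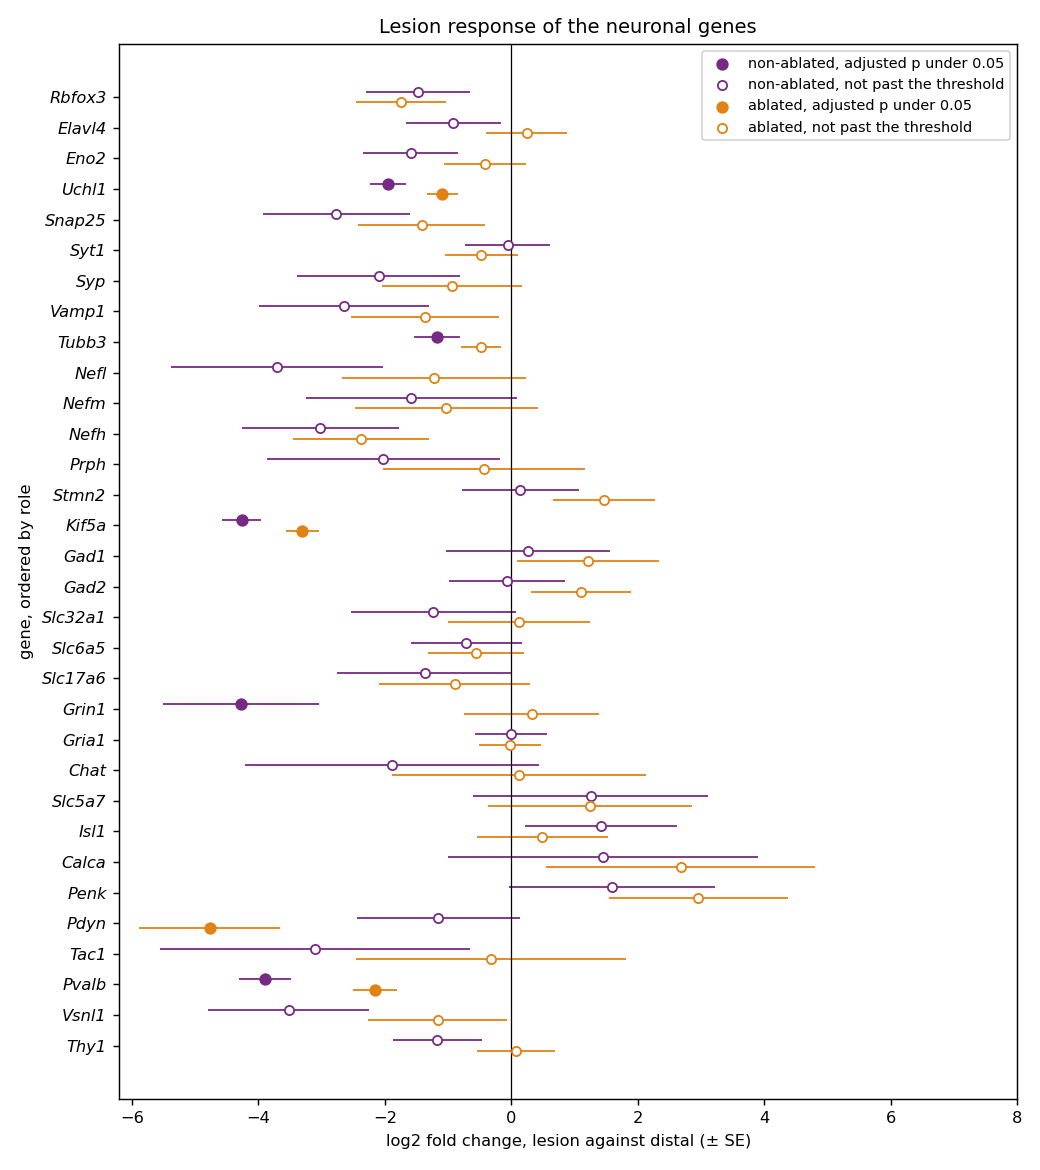
Log2 fold change of lesion against distal tissue for the 32 genes tested, in non-ablated (purple) and ablated (orange) mice, with bars of 1 standard error. Filled points passed an adjusted p of 0.05: Kif5a, Pvalb and Uchl1 in both genotypes, Tubb3 and Grin1 in non-ablated and Pdyn in ablated mice.

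Because the level of neuronal genes differed between libraries, the same model was also fitted to values from which the mean log2 level of the 12 other neuronal genes in each library had been subtracted. On this relative scale all genes tested had a median lesion difference of 1.35 in non-ablated and 0.85 in ablated mice, and the 32 genes had medians of -0.15 and 0.36. The reference genes themselves fell in lesions (median -1.22 and -0.96), and subtracting them raises other genes. The shares of all genes called on this scale are shifted by that step, with few lower and many higher, and are no measure of enrichment. In non-ablated mice Kif5a (-2.99 ± 0.88, adjusted p = 0.0098) and Pvalb (-2.62 ± 0.88, adjusted p = 0.0253) were lower relative to the other neuronal genes, a call made for 0.499% of all genes. There 2802 of 15637 genes were called higher, and none of the 32. The Kif5a call was lost without library 3 or 4 and the Pvalb call without any of libraries 2 to 6 or with age as a covariate (adjusted p = 0.0503). Uchl1 and Tubb3 did not differ by the test on this scale, at -0.68 ± 0.87 and 0.11 ± 0.85 (adjusted p = 0.569 and 0.931).

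In ablated mice, 3 genes were higher and 2 lower in lesions relative to the other neuronal genes, with 14.3% of all genes called higher and 0.64% lower. The higher ones were Penk (3.77 ± 1.03, adjusted p = 0.00426), Calca (3.48 ± 1.00, adjusted p = 0.00725) and Stmn2 (2.28 ± 0.74, adjusted p = 0.0213). The lower ones were Pdyn (-3.96 ± 0.96, adjusted p = 0.00107) and Kif5a (-2.49 ± 0.77, adjusted p = 0.0136). Calca was at 0, 0, 979 and 269.9 in distal tissue and 43.8, 3296, 64.8 and 44.7 in lesions, and its relative difference fell to 2.31 without library 10 and no longer passed (adjusted p = 0.143). It was also lost without distal library 7 or 9, with a pseudocount of 10 (1.92, adjusted p = 0.0707) and with array weights, where it was 0.64 (adjusted p = 0.639). The Penk call was lost without library 12 (adjusted p = 0.0504), the Stmn2 call without library 7, 8 or 9, and the Kif5a call without library 7 or 12. In non-ablated mice Penk, Calca and Stmn2 had relative differences of 2.87 ± 1.19, 2.73 ± 1.15 and 1.42 ± 0.85 that did not pass (adjusted p = 0.0744, 0.0822 and 0.221), and the difference between genotypes did not pass for any of the 3.

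Ablated and non-ablated lesions were compared directly. These groups also differ in age as labelled, which cannot be told apart from ablation. The mean log2 level of 9 macrophage markers lay at 12.12 to 12.82 in ablated and 13.23 to 13.68 in non-ablated lesions. The part of age, of microglia and of macrophages in the differences below was not tested. None of the 32 genes was called by limma, 4 had an unadjusted p under 0.05, edgeR called 0 and DESeq2 3. Of all genes limma called 0.294%, edgeR 0.301% and DESeq2 1.69%. Of the 32 genes, 29 had a positive log2 difference, higher in ablated lesions, with a median difference of 0.90 against 0.01 over all genes. That median was 0.56 without library 10, and 1.56 in edgeR. In 5 genes (Kif5a, Pvalb, Uchl1, Tubb3 and Grin1) every ablated lesion was above every non-ablated lesion, as for 7.62% of all genes.

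The 4 genes with the smallest p in this comparison were Pvalb, Uchl1, Kif5a and Tubb3, whose values in each lesion library are given above. Pvalb lay between 156 and 377 in ablated and between 53.3 and 116 in non-ablated lesions, a difference of 1.82 ± 0.38 (adjusted p = 0.0692). Uchl1 differed by 0.96 ± 0.26 (adjusted p = 0.216), Kif5a by 0.98 ± 0.29 (adjusted p = 0.267) and Tubb3 by 0.99 ± 0.34 (adjusted p = 0.389). Pvalb passed in 6 of 25 alternative settings, in which its difference lay between 1.58 and 2.64. Oligodendrocyte markers lay at 12.47 to 13.09 in non-ablated and 12.97 to 13.52 in ablated lesions in mean log2 level, and the neuronal reference genes at 7.02 to 7.96 and 7.20 to 9.33. Their part in these differences was not tested. Relative to the neuronal reference the 32 genes had a median difference of 0.04, against -0.84 over all genes tested. The reference genes themselves were higher in ablated lesions (median 0.96), and subtracting them lowers other genes on this scale. None of the 32 was called (0.396% of all genes were), and 1 of the 32 had an unadjusted p under 0.05. No other tool was run on this scale.

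In distal tissue, ablated and non-ablated libraries overlapped for all 32 genes. No gene was called by limma (1 had an unadjusted p under 0.05, edgeR called 0 and DESeq2 1), and 16 of 32 log2 differences were positive. Of all genes limma called 0.365%, edgeR 0.403% and DESeq2 3.47%, and 3.1% were without overlap and lower and 2.39% without overlap and higher in ablated tissue. Grin1 had the smallest p, at 8.31, 55.1, 25.6 and 2.68 in ablated against 89.9, 15.4 and 967 in non-ablated distal tissue (difference -2.91 ± 1.15, adjusted p = 0.415). Library 5 again set that difference, which was -1.36 without it. Pdyn, Syt1 and Rbfox3 followed, with differences of 2.26 ± 1.21, 0.97 ± 0.62 and 1.17 ± 0.77 (adjusted p = 0.584, 0.675 and 0.685). With the age label as a covariate the Pdyn difference was -0.35.

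The lesion response was then compared between the genotypes by the interaction term. None of the 32 genes was called (4 had an unadjusted p under 0.05, edgeR called 0 and DESeq2 1), while limma and edgeR each called 0.0128% of all genes and DESeq2 0.613%. Pvalb had the smallest p, with a response 1.74 ± 0.53 higher in ablated mice (adjusted p = 0.69). Grin1, Kif5a and Uchl1 followed at 4.60 ± 1.63, 0.96 ± 0.41 and 0.85 ± 0.37 (adjusted p = 0.757, 0.863 and 0.863). The median over the 32 genes was 1.16, and 0.04 over all genes. With each library left out it lay between 0.52, without library 1, and 1.80, without library 5. Without library 6, 7, 9 or 10 it was 0.68, 0.70, 0.76 and 0.54.

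The ablated lesions differed among themselves in which neuronal genes they held. Library 10 had the highest level of several cholinergic and axonal genes. Chat was at 2.5, 309.8, 9.14 and 5.49 in libraries 8, 10, 12 and 14, Slc5a7 at 33.8, 1051, 104 and 103 and Prph at 5.01, 1345, 144 and 40.0. Nefl was at 105, 4796, 473 and 158 and Nefm at 18.8, 1165, 108 and 42.3. Most of the listed motor neuron genes outside the 33 were also highest in library 10, several of them at low levels. Ret, a receptor for a motor neuron survival factor, was at 92.7, 2176, 380.5 and 70.6. Chodl, a marker of fast motor neurons, was at 27.6, 295, 29.9 and 49.4. Isl2 was at 0, 64.7, 4.15 and 4.70 and Slc10a4 at 10.0, 489, 34.9 and 14.1. The exceptions were Tbx20 and Chrna4. Tbx20, a transcription factor of motor neurons, was highest in library 8, at 3062 against 1706 in library 10. Chrna4, a nicotinic receptor subunit, was at 88.6 in library 14 and 87.8 in library 10.

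Library 12 was the highest of the ablated lesions for some transmitter and peptide genes and not for others. Its Gad2 was the highest of the 4, which were at 6.26, 31.9, 78.9 and 10.2, and so was its Slc17a6, with 10.0, 91.0, 217 and 44.7. Tac1 was at 0, 244, 836 and 143 and Syt1 at 128, 204, 535 and 177, library 12 being highest for both. Penk was highest there too, at 292. Library 10 was above library 12 for Calca (3296 against 64.8), Slc32a1 (279 against 135) and Gad1 (173 against 148) as well as Slc6a5 (10.8 in library 12), and its mean log2 level of neuropeptide genes was 7.74 against 6.94. The mean log2 level of the 3 tested cholinergic genes and Slc18a3 was 5.55 in library 10 and 3.04 in library 12, while that of GABA and glycine genes was 6.17 and 6.05. These are descriptions of single libraries with no test.

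**Figure D4:**
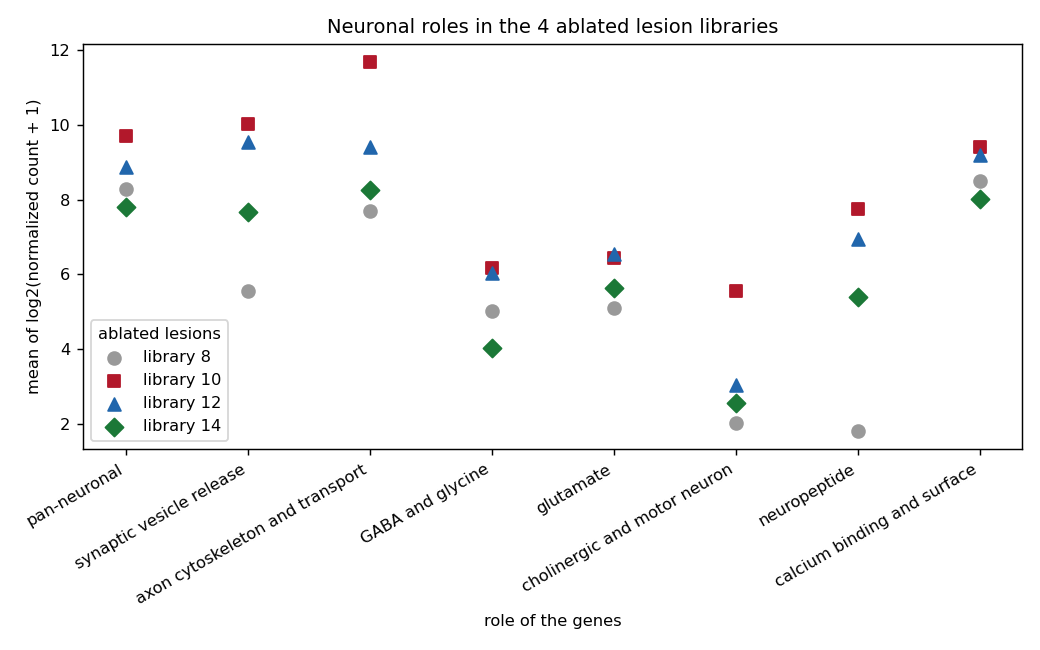
Mean of log2(normalized count + 1) over the genes of each role in the 4 ablated lesion libraries. Libraries 10 and 12 lie close together for GABA and glycine and for glutamate genes, and far apart for cholinergic genes, at 5.55 and 3.04.

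Library 8 was the lowest of the 7 lesions for 8 of 32 genes (25%, against 26.3% of all genes), Syp at 5.01 and Tac1 at 0 among them. It held the highest Slc32a1 (1034, 279, 135 and 22.0 in libraries 8, 10, 12 and 14) and the highest Thy1 (6388, 2564, 1882 and 764). Its Gad1 and Slc6a5 were 13.8 and 8.77, neither of them the highest among the ablated lesions. The sum of 7 T cell markers was 29.1 to 78.4 over the ablated lesions.

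Other neuronal gene lists put these values in context. In each, members were called between lesion and distal tissue in the number given, first in non-ablated and then in ablated mice. Of all genes 13.3% and 13.8% were called lower and 14.7% and 16.1% higher, and counts near those shares, such as 2 of 16 or 2 of 10, are no result about a list. Of 21 other axonal and microtubule genes, 14 and 11 were lower and 1 and 2 higher, with median differences of -1.86 and -1.23. Cntn1, an axonal adhesion molecule, fell by 2.46 ± 0.19 and 1.80 ± 0.16 (adjusted p = 1.26e-06 and 2.15e-06), and Mapt, which encodes tau, by 1.83 ± 0.20 and 1.57 ± 0.18 (adjusted p = 1.74e-05 and 1.33e-05). Of 18 neuronal ion channel genes, 5 and 6 were lower and 1 and 0 higher. The potassium channel gene Kcna1, found beside the nodes of myelinated axons, fell by 2.31 ± 0.35 and 1.84 ± 0.31 (adjusted p = 0.000238 and 0.000386). Several of these genes are also transcribed in glia.

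Of 16 other vesicle release genes, 5 and 2 were lower and 1 and 1 higher. The 12 neuronal reference genes had 3 and 2 lower and none higher. Of 13 genes for inhibitory receptors and uptake, 3 and 3 were lower and none higher. The 16 glutamate receptor and transport genes had 1 and 2 lower and 1 and 1 higher, and 8 tested motor neuron genes had none called (medians -0.62 and 0.33). Of 7 calcium-binding genes 3 and 3 were lower, and of 3 monoamine genes 1 and 1. Of 18 other neuropeptide genes 3 and 3 were lower and 1 and 1 higher. Npy was the higher one, at 14.0, 13.2 and 3.82 in non-ablated distal and 100.2, 162 and 169 in lesion libraries, a rise of 3.80 ± 0.78 (adjusted p = 0.00222), and at 0, 0, 0 and 7.15 in distal and 473, 427, 309 and 528 in lesion libraries in ablated ones, a rise of 7.98 ± 0.68 (adjusted p = 1.28e-06).

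Of 10 nerve injury response genes, 2 were higher in non-ablated and 5 in ablated mice and none lower, against 14.7% and 16.1% of all genes higher, with medians of 1.65 and 2.01. Atf3, a transcription factor induced in injured neurons and in other stressed cells, rose by 3.28 ± 0.60 in non-ablated and 4.66 ± 0.52 in ablated lesions (adjusted p = 0.000937 and 1.31e-05). Gap43, a growth cone protein, was at 332, 239 and 219 in non-ablated distal and 1267, 1512 and 1083 in lesion libraries, a rise of 2.29 ± 0.45 (adjusted p = 0.00161), and rose by 2.06 ± 0.39 in ablated lesions (adjusted p = 0.00107). In none of these 11 lists was a gene called between ablated and non-ablated tissue.

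**Figure D5:**
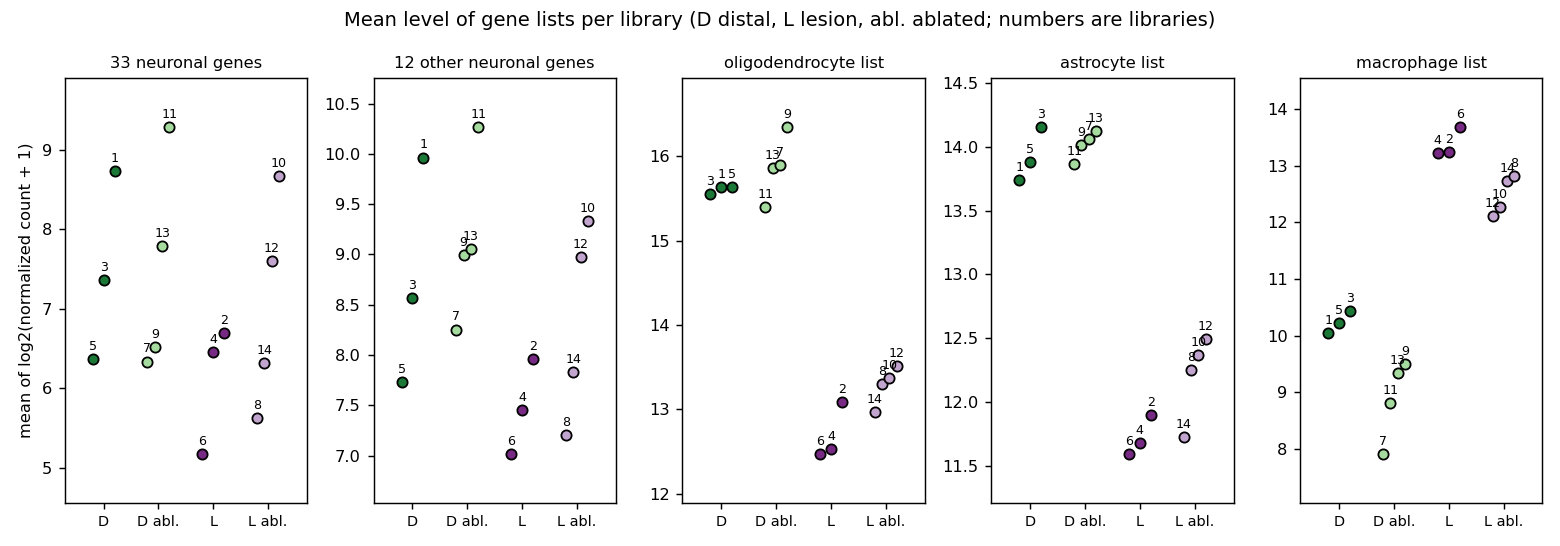
Mean log2(normalized count + 1) of the 33 neuronal genes, the 12 other neuronal genes and the oligodendrocyte, astrocyte and macrophage markers, 1 point per library, labelled by library number. Neuronal levels overlap between lesion and distal tissue, with library 11 and library 10 on top, while oligodendrocyte, astrocyte and macrophage markers separate the tissues.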

How the data were processed

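Bulk RNA-seq was run on 14 pooled spinal cord pieces. Per the labels' protocols, multiple displacement amplification followed reverse transcription, which can add spread at low genes, before NextSeq sequencing of 75 cycles. BWA 0.7.17.1, DESeq2, bcl2fastq and the mm10 build are credited to the submitters' processing notes. The sources used here do not name the read counter or say whether it used strand. The deposited values are a signal: the authors scaled gene counts by a DESeq2 size factor for each library, per the labels. When a column was divided by its smallest step, 100% of values came out whole within 0.01, but in distal library 1 the step was 0.998, too near 1 to tell from rounding.

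Groups came from the sample titles. The 33 genes and all other lists were chosen with earlier results of these data known. limma 3.58.1 in R 4.3.3 (trend) was fitted to log2(normalized count + 1) of 15637 genes (3 or more libraries with 10 or more normalized counts), as 4 group means with 10 residual degrees of freedom and 4.23 from the prior. Replicates are separate pools of mice, per the design text. The 5 comparisons were lesion against distal tissue in each genotype, ablation in each tissue, and the interaction. A second fit used values minus the mean of 12 neuronal reference genes in each library. Alternatives were TMM and quantile scaling, pseudocounts of 0.5 and 10, no filter or one at 50, array weights, age as a covariate, only the groups compared, DESeq2 1.42.0 and the quasi-likelihood test of edgeR 4.0.16 on recovered reads, and each library left out. Only the limma fit was tried on simulated data, for lesion against distal tissue in non-ablated mice. All genes had the same relative spread there, so that trial does not cover genes as variable as most of the 33. Full statistics were given for the 8 genes with the smallest p between lesion and distal tissue, the 4 smallest in each other comparison and 1 gene of each role. Of each other neuronal list up to 3 genes were named. Genes and libraries described for single high values were chosen after their values were seen. Coordinates are those of the RefSeq table of GRCm38.p6, which matched all 33 genes.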

Additional observations from a re-analysis of the deposited data

Results flagged for a closer look

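In groups of 4 libraries, 1 value stood apart from the other 3 on the log2 scale in 3 of the 64 groups examined, where chance gives about 1 in 20. In ablated lesions Calca was at 3296 normalized counts in library 10 and between 43.8 and 64.8 in the other 3. Pdyn was at 0 in lesion library 8, and between 13.3 and 22.7 in the other ablated lesions. In ablated distal tissue Gria1 was at 114 in library 9, where the other libraries lay between 250 and 288.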

How the results depend on the processing

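Kif5a, Pvalb and Uchl1 in both genotypes and Pdyn in ablated mice kept their lower call between lesion and distal tissue in all 25 alternatives. The number of the 33 genes called in non-ablated mice rose from 5 to 8 with array weights, 10 with only the groups compared and 8 with DESeq2, and was 4 to 6 with each library left out. In ablated mice it stayed at 4 to 6 with each library left out. Between ablated and non-ablated lesions it was 1 with quantile normalization, 4 with array weights, 1 with only the groups compared, 3 with DESeq2 and 0 to 1 with each library left out, instead of 0. DESeq2 also called 1 gene in distal tissue and 1 in the interaction. Relative to the neuronal reference, calls in non-ablated mice moved from 2 to 4 with a pseudocount of 10, 22 with array weights and 1 with age as covariate, and to 1 to 7 with each library left out. In ablated mice they moved from 5 to 8 with array weights and to 2 to 6 with each library left out. Array weights gave 2 relative calls between lesions, 9 between distal groups and 6 in the interaction, and leaving out each library gave 0 to 1 between distal groups, instead of 0. The cause was not tested.

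Reversed directions were seen for genes that did not pass. The Gad1 difference in non-ablated mice (0.26) was -0.14 with quantile normalization, -0.56 in edgeR and -0.52 in DESeq2, and lay between -0.32 and 1.33 with each library left out, below 0 at -0.21 without library 3 and -0.32 without library 5. The Chat difference in non-ablated mice (-1.88) lay between -3.90 and 0.38 with each library left out. In ablated mice (0.12) it was -0.83 with quantile normalization, -0.17 with a pseudocount of 10 and -0.81 with array weights, and lay between -1.30 and 1.41, at -1.18 without library 7, -0.48 without library 9 and -1.30 without library 10. The Pdyn difference between distal groups (2.26) was -0.35 with age as covariate. The cause was not tested. The median of the 32 genes lay between -2.07 and -0.79 in non-ablated and between -0.89 and 0.09 in ablated mice with each library left out. No paired analysis was possible because the groups share no replicate numbers. The spread between libraries, with 3 or 4 per group, limits what can be called.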
